A study of Homo sapiens with 4 samples.

Results

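The binding of Flag-tagged FLI1 was examined at 10 genes that encode NF-κB subunits or regulators of the pathway, which were *NFKB1*, *NFKB2*, *REL*, *RELA*, *RELB*, *NFKBIA*, *NFKBIE*, *BCL3*, *TNFAIP3* and *TRAF3*. They were taken by symbol from the 62663 genes of GENCODE 44 on GRCh38, of which 20033 are protein-coding, and for each gene every deposited peak was collected that lay within 3 kb of an annotated transcription start site (TSS), in the gene body or within 50 kb of the gene. This gave 53 of 30819 peaks in the control library and 61 of 39654 peaks in the library of IFN-γ-treated cells. Both libraries came from HK1, an established nasopharyngeal carcinoma cell line in which Flag-FLI1 was overexpressed, and anti-Flag antibody was used for the precipitation. The peaks are therefore those of the introduced protein and not of FLI1 at its own level. One culture was treated with PBS (the control) and the other with IFN-γ for 24 h, and each condition had 1 library, so no effect of the treatment could be tested and every comparison below is between 2 libraries. The matching 2 input libraries were not analysed here.

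NF-κB factors are dimers of Rel proteins that inhibitor proteins of the IκB family hold in the cytoplasm until a kinase complex marks the inhibitors for degradation. The freed dimers then enter the nucleus, bind κB sites and activate inflammatory and survival genes, among them the genes of their own inhibitors, which closes a feedback loop. In a second branch the adaptor TRAF3 keeps the kinase that starts p100 processing at a low level. FLI1 belongs to the ETS family, whose members bind DNA at a GGAA core, and nasopharyngeal carcinomas often carry lesions that activate NF-κB, in *TRAF3* and in IκB genes among others.

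Stretches of up to 101 bp at the strongest control promoter summit of each gene were read from the reference and cut where annotated UTR bases would pass 30. Of the 10 stretches, 4 are shown, at both genes of subunit precursors, a nuclear IκB gene and the gene of a ubiquitin-editing enzyme, because they held the most GGAA cores. The *TRAF3* stretch held 1 core, and those of *REL*, *RELA*, *RELB*, *NFKBIA* and *NFKBIE* held 0, although all 5 had 2 or more cores within 100 bp of the summit. The 4 are GRCh38 reference sequence written 5′ to 3′ on the strand of the gene, which is the plus strand for all 4, and capitals mark each GGAA or its complement TTCC. The *NFKB1* stretch is chr4:102501294-102501359 and ends at the TSS of its MANE Select transcript (the reference transcript chosen jointly by Ensembl and RefSeq). The *NFKB2* stretch is chr10:102394108-102394139, beside the summit at the upstream TSS of that gene, which the cut left outside the stretch. The *TNFAIP3* stretch is chr6:137866902-137867002, upstream of its first exon, and the *BCL3* stretch is chr19:44754446-44754546, in intron 2.
NFKB1: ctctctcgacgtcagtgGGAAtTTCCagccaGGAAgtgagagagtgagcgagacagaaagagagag
NFKB2: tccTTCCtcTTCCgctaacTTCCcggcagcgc
TNFAIP3: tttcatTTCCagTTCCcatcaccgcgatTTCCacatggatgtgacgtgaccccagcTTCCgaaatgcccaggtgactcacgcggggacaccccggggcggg
BCL3: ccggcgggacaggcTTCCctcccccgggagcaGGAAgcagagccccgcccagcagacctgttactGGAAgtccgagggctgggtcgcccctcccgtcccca
The *NFKB1* stretch held 3 cores, of which the first and second lie inside a match to the κB consensus and the third lies in a match to the octamer CAGGAAGT. The *TNFAIP3* stretch held 4 cores together with 1 match to the κB consensus and 1 AP-1 match (TGANTCA). The *NFKB2* and *BCL3* stretches held 3 cores each and no match to either the octamer or the κB consensus.

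Every one of the 10 genes had a promoter peak (one that touched the 3 kb either side of any of its TSSs) in both libraries. Over all protein-coding genes the share was 61.9% in the control library and 59.7% after IFN-γ. The 10 genes had 4 to 24 annotated TSSs each, so several places could count as a promoter. At the MANE Select TSS alone the count was 10 genes in the control library and 9 after IFN-γ, and no coding-gene share for that choice is given here. A peak in the wider neighbourhood was common everywhere, at 85.8% (control) and 88.8% (IFN-γ) of protein-coding genes, so the count of 10 of 10 in that window says little about these genes. Promoter peaks numbered 18 and 21, and no peak lay in a gene body away from every TSS of its own gene. The flanks held the remaining 35 and 40 peaks. Of these, 33 and 36 had the TSS of another gene as the nearest one, and 24 and 25 lay within 3 kb of such a TSS, so most flank peaks are promoter peaks of neighbours. The map of summits by distance from the TSS shows how unevenly the peaks were spread, from *NFKB1* with 1 peak in each library to *BCL3* with 11 in the control library and *NFKBIE* with 10 after IFN-γ.

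**Figure D1:**
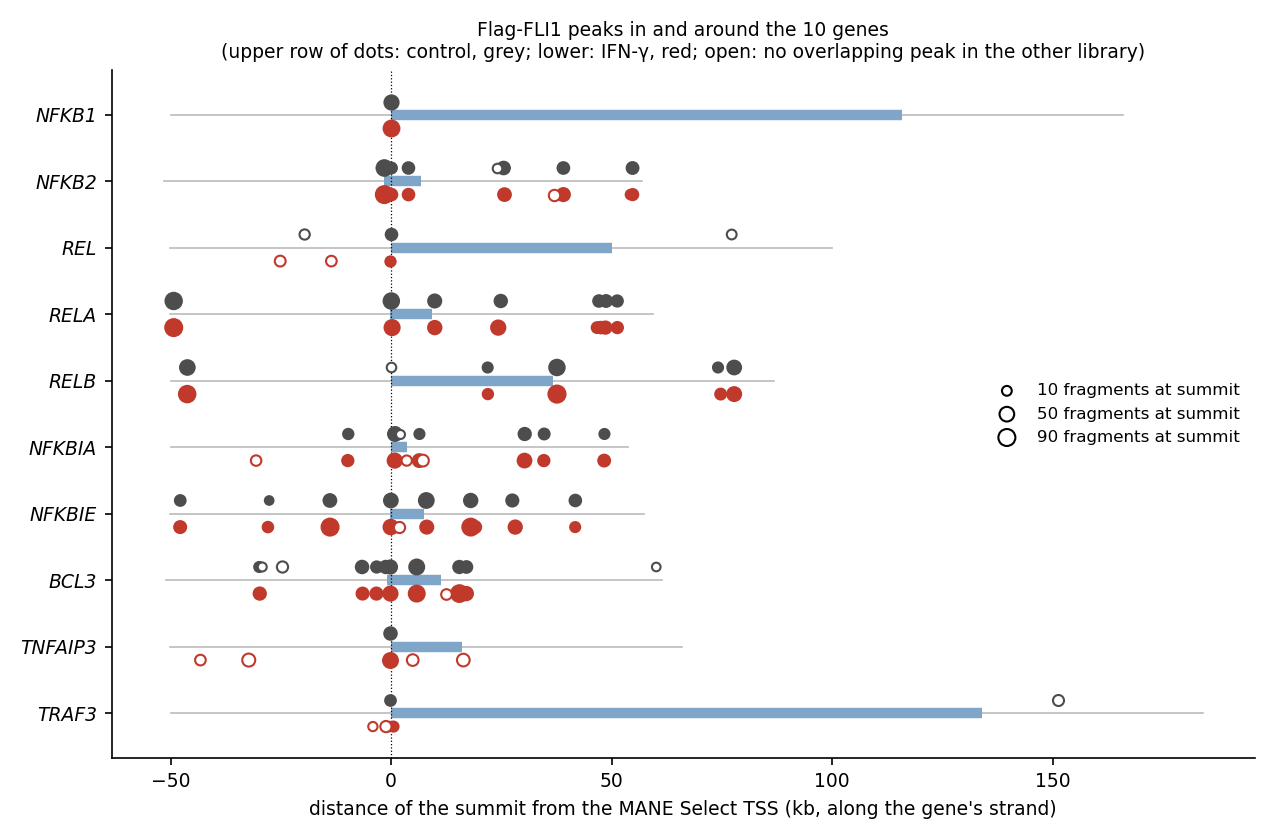
Summits of Flag-FLI1 peaks in control (grey, upper dots) and IFN-γ (red, lower dots) cells, by distance in kb from the MANE Select TSS of each gene, with the gene as a blue bar and its flanks as a grey line; dot size follows the fragments at the summit and open dots had no overlapping peak in the other library. *NFKB1* has 1 peak per library, at its TSS, while *TNFAIP3* has 1 control peak and 5 IFN-γ peaks.

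For each peak the fragments piled up at the summit and the local background were recovered from the deposited fold enrichment and −log10 p. Fold enrichment is the pileup plus 1 over the background plus 1. The strongest promoter peak of each gene by −log10 p had a median fold enrichment of 18.2 in the control library (range 5.84 to 26.8) and 14.1 after IFN-γ (range 3.39 to 29.1). The strongest promoter peaks of the 12407 and 11967 protein-coding genes that had one reached medians of 10.5 and 9.12. Median summit pileups were 41.5 and 50 fragments at the 10 genes, against 26 and 33 fragments over the coding genes. In rank, 5 of 10 fell in the top 10% of the control list and 3 of 10 in that of the IFN-γ list, while 24.8% and 23.0% of the coding genes did. The 5 include *NFKBIE* through a peak at rank 1716 whose summit lay at the TSS of its neighbour *SLC35B2*. The control peak at the TSS of *NFKBIE* itself had rank 3223 (10.5% of the list), outside the top 10%. The genes formed an upper set (*NFKB1*, *NFKB2*, *RELA*, *NFKBIA*, *NFKBIE* and *BCL3*) above the coding-gene median in both libraries and a lower set (*REL*, *RELB* and *TRAF3*) below it in both, with *TNFAIP3* below it in the control library and above it after IFN-γ.

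Among the Rel proteins, *NFKB1* and *NFKB2* encode the precursors that are processed to the subunits without an activation domain. *NFKB1* (ENSG00000109320) spans 116 kb of chromosome 4 from 102501330 to 102617302 on the plus strand. In that span and its flanks each library had a single peak, with the summit at −15 bp from the TSS in the control library and −17 bp after IFN-γ (minus is upstream throughout). The summit held 43 fragments (18.8-fold) in the control library and 67 fragments (26.8-fold) in the IFN-γ library. Both summits lie inside the stretch printed above, within 30 bp of the κB match centred at −44 bp. *NFKB1* was the only gene of the 10 whose strongest control promoter summit had the ETS octamer within 100 bp, as 16.9% of coding genes did.

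*NFKB2* (ENSG00000077150, chromosome 10, 102394110 to 102402524, plus strand) had 3 promoter peaks in each library, at the same 3 places. The strongest lay at its upstream TSS, −1547 bp from the MANE Select TSS in the control library and −1544 bp after IFN-γ, with 64 fragments (26.8-fold) and 90 fragments (29.1-fold). This was the strongest promoter peak of all 10 genes in both lists, at rank 1215 and rank 1369. A weaker peak in exon 1 held 15 and 19 fragments, and one in exon 14, near the start of a short transcript, held 19 fragments in each library. The exon 14 windows had 0 GGAA cores within 100 bp of the summit in either library.

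*RELA* encodes the main activating subunit and *REL* its lymphoid relative. *RELA* (ENSG00000173039, chromosome 11, 65653599 to 65663090, minus strand) had 1 promoter peak in each library, with the control summit in exon 1 and the IFN-γ summit in intron 1, 175 bp apart. It held 61 fragments (21.2-fold) in the control library and 55 fragments (13.2-fold) in the IFN-γ library, and its background went from 1.93 to 3.25 fragments. *RELA* was the one gene of the 10 with no κB match within 1 kb of its MANE Select TSS. *REL* (ENSG00000162924, chromosome 2, 60881491 to 60931612, plus strand) had 19 fragments (9.33-fold) at −73 bp in the control library. In the IFN-γ library its promoter summit lay at −321 bp, nearest to the TSS of the divergent transcript *REL-DT*, with 12 fragments (3.39-fold) at rank 37542 of 39654. The 2 other control peaks lay at −19.6 kb and 77.2 kb and the 2 other IFN-γ peaks at −25.2 kb and −13.6 kb, and none of these 4 was met by a peak in the other list.

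*RELB* encodes the partner of the processed *NFKB2* product. At *RELB* (ENSG00000104856, chromosome 19, 45001461 to 45038192, plus strand) a peak at the MANE Select promoter appeared in the control list alone, with 9 fragments (4.87-fold) at −87 bp. The second promoter peak was in both lists, 21.9 kb into the gene in intron 5 and near the start of a shorter transcript, with 11 and 12 fragments (5.84-fold and 5.13-fold). It lay on a run of GGAA units, shown further on. By −log10 p the intron 5 peak ranked 20634 of 30819 in the control list and 30786 of 39654 in the IFN-γ list, and the peak at −87 bp ranked 24844 of 30819. All of them were thus in the weaker part of the lists.

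Among the inhibitors, *NFKBIA* encodes IκBα, the inhibitor that NF-κB induces most quickly. *NFKBIA* (ENSG00000100906, chromosome 14, 35401079 to 35404749, minus strand) had its strongest summit in intron 1, at 866 bp in the control library with 40 fragments (17.5-fold) and at 800 bp in the IFN-γ library with 43 fragments (15.1-fold). The peaks spanned the first TSS and held all 3 κB matches found within 1 kb of it. A small peak of 7 fragments in intron 4 was in the control list alone, and one of 12 fragments at 3526 bp was in the IFN-γ list alone. *NFKBIA* also had the most peaks away from any TSS, at 5 places in both libraries from −9.74 kb to 48.4 kb (control summits). The nearest of them downstream, 6.41 kb from the TSS in the control library, went from 11 to 29 fragments before scaling for depth. Its depth-scaled ratio, defined further on, was 1.81 (0.878 to 4.02), an interval that holds no change.

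*NFKBIE*, which encodes IκBε, lies on the minus strand of chromosome 6 from 44258166 to 44265788 (ENSG00000146232). Its own promoter held 38 fragments (18.8-fold) at −70 bp in the control library and 47 fragments (11.5-fold) at −96 bp in the IFN-γ library. A second peak counted at its promoters, because an annotated *NFKBIE* transcript starts within 3 kb, had its summit −18 bp from the TSS of the neighbour *SLC35B2*, a transporter gene. That peak was the stronger one in the control library, with 51 fragments (25.3-fold), and the weaker one in the IFN-γ library, with 31 fragments (10.9-fold).

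*BCL3* encodes a nuclear IκB protein that works as a coactivator of homodimers. *BCL3* (ENSG00000069399, chromosome 19, 44747705 to 44760044, plus strand) had its strongest promoter peak in intron 2, at 5788 bp with 53 fragments (26.3-fold) in the control library and at 5793 bp with 69 fragments (23.5-fold) in the IFN-γ library. The sequence of this summit is the one printed above. At the MANE Select TSS itself the summit lay at −165 bp with 32 fragments (15.5-fold) in the control library and at −169 bp with 43 fragments (13.4-fold) in the IFN-γ library. The control list split the promoter into a peak of 25 fragments at −1219 bp and the one at −165 bp, while the IFN-γ list joined them.

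*TNFAIP3* encodes a ubiquitin-editing enzyme that shuts NF-κB signalling off, and *TRAF3* a ubiquitin ligase of the second branch. *TNFAIP3* (ENSG00000118503, chromosome 6, 137867214 to 137883314, plus strand) had 26 fragments (8.998-fold) at −307 bp in the control library and 53 fragments (16.8-fold) at −341 bp in the IFN-γ library. That summit was its only control peak. *TRAF3* (ENSG00000131323, chromosome 14, 102777449 to 102911500, plus strand) had 14 fragments (7.30-fold) at −376 bp in the control library, the lowest value after *RELB* when the strongest control promoter peak of each gene is taken. Its IFN-γ list held 3 small promoter peaks of 17, 9 and 11 fragments at −1195 bp, −431 bp and 529 bp. Across the rest of the 134 kb gene no peak was called in either library.

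Matches to the κB consensus were frequent under these promoter summits. In the control library 11 of 18 promoter summits had a κB match within 100 bp (61.1%, exact 95% interval 35.7 to 82.7), which fell in 8 of the 10 genes, while 5.53% of the 17536 control peaks near any TSS did. In the IFN-γ library it was 6 of 21 (28.6%, 11.3 to 52.2), in 5 of the 10 genes, against 5.58% of 18627 peaks. The 2 intervals overlap, but 16 of the 18 control promoter peaks were met by an IFN-γ peak, so the 2 shares are not independent. The difference between them was not tested. For comparison, 3.87% of windows of the same 201 bp width at the MANE Select TSSs of coding genes held a match. The reference sequence of these genes was rich in such matches whatever the peaks, since 9 of the 10 had one within 1 kb of the MANE Select TSS, as did 35.1% of coding genes. Of the 14 κB matches under the control summits, 10 shared bases with a GGAA core, as did 4 of the 7 under the IFN-γ summits, so the 2 motifs are not independent. These shares are descriptions of the reference sequence and do not show that an NF-κB dimer was bound, and neighbouring promoter peaks of 1 gene are counted separately. The intervals cover counting error only.

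Other motifs could not be told from promoter peaks in general at these counts. The ETS octamer, CAGGAAGT or CCGGAAGT, was near 1 of 18 control summits and 3 of 21 IFN-γ summits, against 13.4% and 15.0% of all peaks near a TSS and 7.19% of coding TSS windows. An AP-1 match (TGANTCA) was near 3 and 5 summits, against 10.1% and 13.6% of all peaks near a TSS and 3.04% of coding TSS windows. The GAS element (TTCNNNGAA) was near 2 control summits and 1 IFN-γ summit, against 4.44% and 5.19% of all peaks near a TSS. A bare GGAA core was near 17 of 18 and 20 of 21 summits, and 84.5% of coding TSS windows held one, so its presence separates little. All motifs were searched on both strands. The windows were also GC-rich, with a median of 71.4% in the control library and 67.7% after IFN-γ against 65.7% and 60.7% for all peaks near a TSS. The part of base composition in the κB share was not tested.

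**Figure D2:**
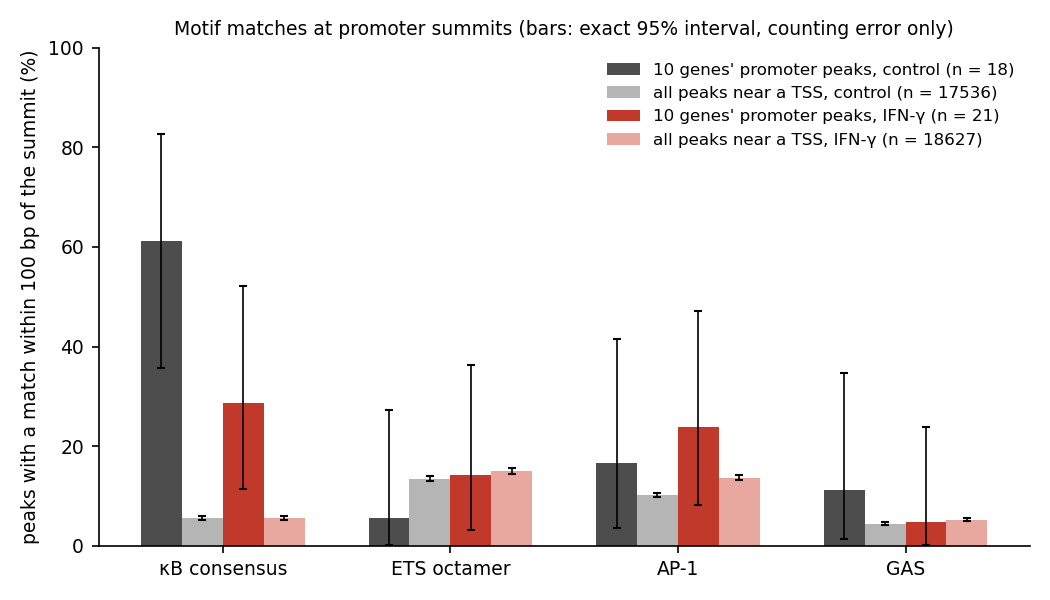
Share of peaks (%) with a match within 100 bp of the summit for 4 motifs, at promoter peaks of the 10 genes and at all peaks near a TSS in each library; thin lines are exact 95% intervals of counting error. The κB bars of the 10 genes stand at 61.1% and 28.6%, against 5.53% and 5.58% of all peaks near a TSS, and the intervals of the other 3 motifs at the 10 genes hold the values of all peaks.

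A peak missing from one list was below the calling cutoff of that library, which is a statement on the list and not on binding. Of the control peaks at the 10 genes, 44 of 53 (83.0%, 70.2 to 91.9) were met by an IFN-γ peak over 1 bp or more, against 77.5% of all control peaks. Of the IFN-γ peaks, 47 of 61 (77.0%, 64.5 to 86.8) overlapped a control peak, against 61.0% of all IFN-γ peaks. Over the genome that second share was 76.9% near a TSS and 47.0% away from one, and 46 of the 61 peaks at these genes lay near a TSS. Every peak of *NFKB1* and *RELA* was shared in both directions, and so were the 8 control peaks of *NFKBIE*.

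*TNFAIP3* held 4 of the 14 IFN-γ peaks that no control peak met, more than any other of the 10 genes. They lay at −43.3 kb with 14 fragments, at −32.3 kb with 31 fragments, in intron 2 at 4.88 kb with 20 fragments and at 16.4 kb, just past the gene, with 28 fragments. The control library was shallower, by a factor of 1.46 taken from the lowest backgrounds of the lists (1.06 and 1.54 fragments). Divided by this factor the 4 summits would hold 9.62, 21.3, 13.7 and 19.2 fragments, and control peaks were called from 6 fragments upwards. Backgrounds at the 4 summits were 2.12 to 3.19 fragments in the IFN-γ library, above the lowest of 1.54. Because a call depends on the local background, 6 fragments need not have been enough at these places. The control fragments at these places are not in the list, so no ratio can be given. *REL*, *TRAF3* and *NFKBIA* had 2, 2 and 3 such peaks, of 8 to 21 fragments.

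The −32.3 kb peak of *TNFAIP3* lay on a run of GGAA units, and 2 other places near these genes had such a run. The runs, chosen for print after their values were seen, are GRCh38 chr6:137834920-137835001 on the plus strand for *TNFAIP3*, chr19:44764115-44764184 on the plus strand at 15.5 kb for *BCL3*, past the end of its MANE Select transcript, and chr19:45023379-45023448 on the minus strand in intron 5 of *RELB*, with capitals again marking GGAA and TTCC.
TNFAIP3 run: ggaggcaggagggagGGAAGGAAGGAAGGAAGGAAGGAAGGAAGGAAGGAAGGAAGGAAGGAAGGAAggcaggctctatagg
BCL3 run: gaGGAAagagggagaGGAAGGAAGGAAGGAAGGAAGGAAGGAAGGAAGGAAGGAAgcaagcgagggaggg
RELB run: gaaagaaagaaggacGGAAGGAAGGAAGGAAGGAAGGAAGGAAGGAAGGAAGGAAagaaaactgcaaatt
GGAA repeats are the known targets of the FLI1 fusion protein of Ewing sarcoma. A run of at least 4 units lay within 100 bp of the summit at 2 of the 42 control peaks and 2 of the 46 IFN-γ peaks near a TSS in the neighbourhoods (the *BCL3* and *RELB* runs), against 2.17% and 3.87% of all peaks near a TSS. Away from a TSS it was 0 of 11 control and 1 of 15 IFN-γ peaks, against 13.2% and 16.96% of all such peaks. The *TNFAIP3* run belongs to this second class. The 3 runs differed in their counts, with 31 fragments in the IFN-γ library alone at *TNFAIP3*, 24 and then 84 fragments at *BCL3*, and 11 and then 12 fragments at *RELB*.

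To compare the libraries at shared places, each control peak was paired with the IFN-γ peak of longest overlap where the choice held in both directions, the summit fragments were divided by the depth factor of 1.46, and a ratio was called where its exact 95% interval left out 1. The interval carries the counting error of these 2 libraries and no variation between replicates. Of 34 pairs near a TSS in the neighbourhoods, 4 were called lower and 2 higher in the IFN-γ library, where 11.9% of all such pairs were lower and 7.18% higher. Of 9 pairs away from a TSS, 0 were lower and 1 was higher, where 1.65% of all such pairs were lower and 18.7% higher. These shares are close to those of the whole lists. The median ratio was 0.860 near a TSS and 1.09 away from one, and the medians over all 13672 and 9805 pairs were 0.886 and 1.24.

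The 15 pairs at promoters of the 10 genes had a median ratio of 0.849, with 3 lower, 0 higher and 12 not called. The joined IFN-γ peak of *BCL3* was paired with the control peak at −1219 bp, 1050 bp from its summit, so that the control peak at −165 bp was left without a pair. The paired summits of *TRAF3* lay 905 bp apart, and those of the other promoter pairs at most 248 bp. *NFKBIE* at the *SLC35B2* TSS had the lowest ratio of them, 0.417 (0.258 to 0.665). *RELA* had a ratio of 0.619 (0.422 to 0.907), and *REL* had 0.434 (0.192 to 0.941), with its summits 248 bp apart. Both of these calls were lost when the pileups were scaled by the median pair near a TSS, to 0.699 (0.476 to 1.02) for *RELA* and 0.490 (0.217 to 1.06) for *REL*.

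The other promoters were not distinguishable from equal binding at this depth. *NFKB1* had a ratio of 1.07 (0.719 to 1.61), *NFKB2* 0.966 (0.693 to 1.35) at its upstream TSS, and *BCL3* 0.894 (0.616 to 1.30) in intron 2. The inhibitors *NFKBIA* and *NFKBIE* had 0.738 (0.469 to 1.17) and, at its own TSS, 0.849 (0.542 to 1.34). *TNFAIP3*, whose fragments went from 26 to 53, had the highest promoter ratio, 1.40, with an interval of 0.860 to 2.33 that holds both no change and a doubling.

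The 3 pairs called higher in the IFN-γ library lay in the flanks. Over all pairs near a TSS 7.18% were called higher, so 0 of the 15 promoter pairs is close to the share of the lists. The GGAA run past *BCL3* went from 24 to 84 fragments, a ratio of 2.40 (1.51 to 3.96), and a *SNORA70* copy is its nearest annotated TSS. A peak away from any TSS at −13.9 kb from *NFKBIE*, with the ETS octamer and an AP-1 match near its summit in both libraries, went from 28 to 89 fragments, a ratio of 2.18 (1.41 to 3.47). The promoter of *HSP90AB1*, a chaperone gene 18.0 kb from the *NFKBIE* TSS, went from 34 to 87 fragments, a ratio of 1.76 (1.17 to 2.70), and it too had the ETS octamer and an AP-1 match near the summit. The *BCL3* run had neither motif near its summit. Pairs with the octamer at *NFKB1*, *CLPTM1* and *KAT5* and pairs with an AP-1 match in the *NFKBIA* flank were not called. A link between these motifs and the ratio was not tested. The fourth lower pair was at the TSS of *SLC29A1*, a nucleoside transporter gene 41.8 kb from the *NFKBIE* TSS, with 19 and 11 fragments and a ratio of 0.398 (0.171 to 0.879).

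**Figure D3:**
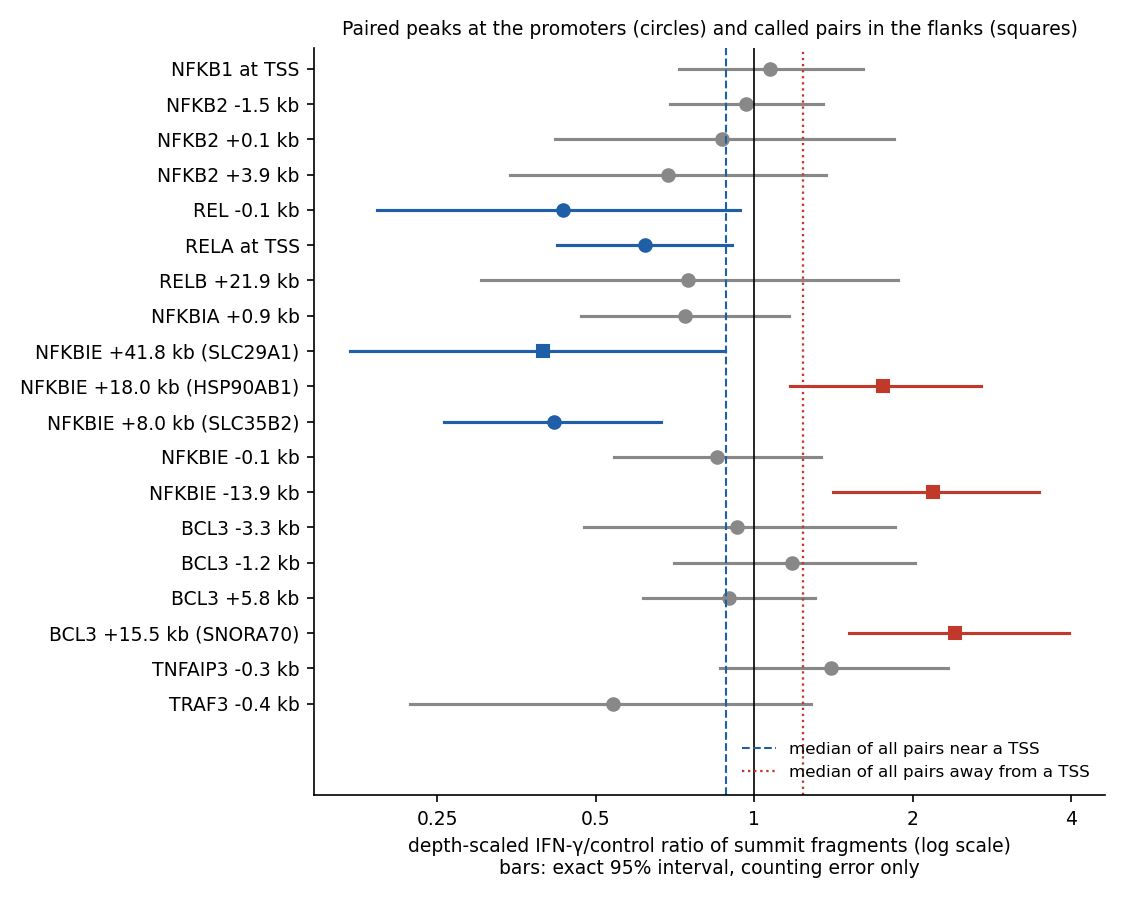
Depth-scaled IFN-γ/control ratio of summit fragments (log axis) with exact 95% intervals of counting error, for the 15 pairs at promoters of the 10 genes (circles) and the called pairs in their flanks (squares); blue is lower, red higher and grey not called, names in parentheses give the nearest TSS of another gene, and the dashed and dotted lines are the medians of 0.886 and 1.24 over all pairs near and away from a TSS. The 3 red intervals, at *HSP90AB1*, −13.9 kb of *NFKBIE* and +15.5 kb of *BCL3*, all belong to flank peaks. Flank pairs that were not called are not drawn, so the figure does not compare promoters with flanks.

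A list of 67 further genes of the pathway, none of them among the 10, was described in the same way by role. A promoter peak was present at 57 in the control library and 60 after IFN-γ (85.1% and 89.6%), against 61.9% and 59.7% of all protein-coding genes, and 57 had one in both. All 10 kinase genes and all 11 genes of other inhibitors and deubiquitinases had one in both libraries, as did 16 of 17 genes of adaptors and ubiquitin ligases. Of 20 response genes, 16 and 18 had a promoter peak, and of 9 receptor genes 4 and 5 did (44.4% and 55.6%). The 7 genes with none in either library were the receptor genes *TNFRSF1B*, *TNFRSF11A*, *IL1R1* and *TLR3*, the adaptor gene *TRAF5* and the response genes *CXCL1* and *MMP9*. *CD40*, *TNF* and *BCL2A1*, named after their values were seen, had one in the IFN-γ list alone, with 17, 26 and 30 fragments.

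In each role the gene with the strongest control promoter peak exceeded all 10 genes in that library. *IER3*, an early response gene, held 217 fragments (72.6-fold) in the control library and 342 (63.4-fold) in the IFN-γ library, and *RIPK1*, the kinase and scaffold at the TNF receptor, held 230 (62.8-fold) and 251 (48.0-fold). *OTUD7B*, a deubiquitinase that acts on TRAF3, held 106 (42.8-fold) and 107 (24.5-fold). *MAP3K7*, the kinase upstream of the IκB kinases, held 100 (30.2-fold) and 207 (34.9-fold), and the receptor gene *TNFRSF12A* held 79 (29.9-fold) and 193 (48.3-fold). Their ratios differed in direction, 0.750 (0.624 to 0.900) at *RIPK1* and 0.693 (0.525 to 0.916) at *OTUD7B* against 1.42 (1.11 to 1.82) at *MAP3K7* and 1.68 (1.29 to 2.21) at *TNFRSF12A*, with 1.08 (0.910 to 1.29) at *IER3*. Over all pairs near a TSS, 11.9% were called lower and 7.18% higher in the IFN-γ library. The scaling by the median pair near a TSS, which removed the calls of *REL* and *RELA*, has a smaller factor (1.29 against 1.46). It was not applied to these genes, but it would raise their ratios and bounds in the same proportion. The intervals at *RIPK1* and *OTUD7B* would then hold 1, so both lower calls would be lost. At *IER3* the interval would lie above 1. The calls at these genes thus depend on the scaling.

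**Figure D4:**
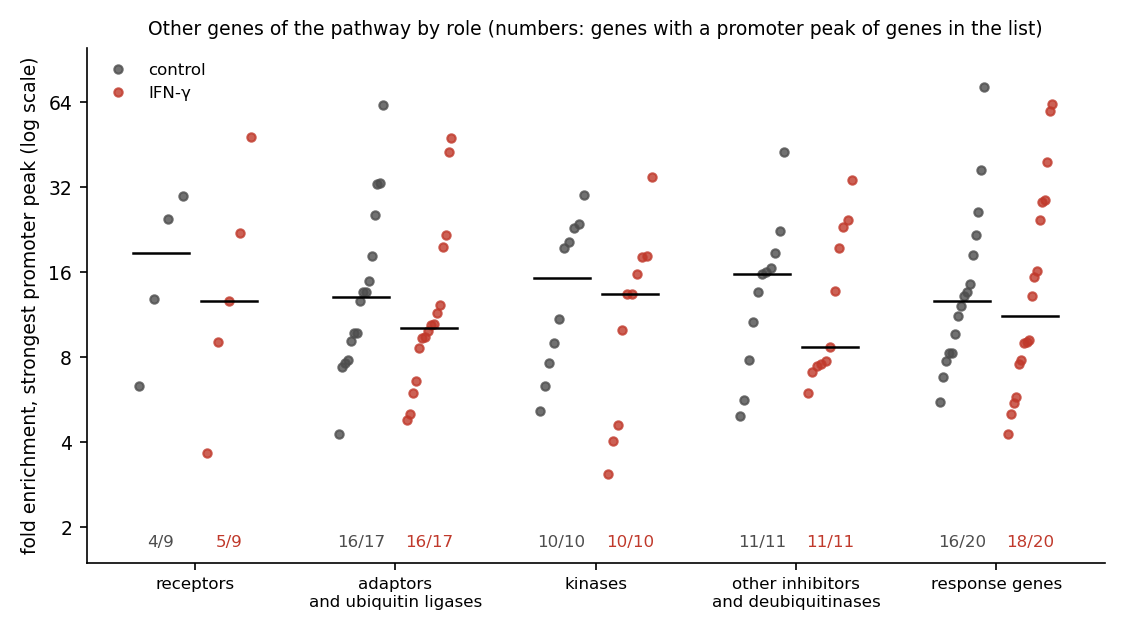
Fold enrichment (log axis) of the strongest promoter peak of each of 67 other pathway genes by role in the control (grey) and IFN-γ (red) libraries; black lines are medians over the genes with a peak, and the numbers below count genes with a promoter peak among the genes in the list. Receptors have the lowest counts, 4 of 9 and 5 of 9, and *IER3* is the highest dot, at 72.6-fold.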

How the data were processed

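Flag ChIP-seq peaks of HK1 cells that overexpressed Flag-FLI1 were analysed in 2 libraries, control and IFN-γ. Read trimming by the authors used cutadapt 1.18, alignment to GRCh38 used Bowtie2 2.3.4.1, and duplicates were removed. Peaks were called per library with MACS2 2.1.2 at a cutoff that the authors state as a p-value of 0.01. The lowest −log10 p in the control and IFN-γ lists was 3.52 and 3.46, and the lowest −log10 q was 1.30 and 1.32. The lists therefore hold no peak near the stated cutoff. Their lowest −log10 q values were nearly equal, as a cutoff on q would leave them, but no such cutoff is stated for these peaks. Whether input was used in calling is not given in the sources used here. The deposited lists give for each peak a display score (not used), the fold enrichment at the summit, −log10 p, −log10 q and the summit offset. Whole summit pileups and backgrounds were solved from fold enrichment and −log10 p for 100% of peaks (relative tolerance 0.0001), so the depth of the lists could be compared without read totals, which the lists do not hold. Each coding gene was measured with the same windows, and genes and TSSs came from GENCODE 44. Exact Clopper-Pearson intervals had a confidence level of 95%. A replicate test was impossible with 1 library per condition.

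The members, the pathway list and the windows were chosen with earlier results of these data known. The text names all 10 genes, in each role of the pathway list the gene with the strongest control promoter peak and those with none, and other genes as the nearest TSS of a described peak or as stated. Alternatives covered q-value cutoffs, windows, TSS choice, overlap rules, lists of equal length, 2 other depth scalings and motif windows. Pileup solving, peak overlap and pairing, the ratio intervals and the search for GGAA, AP-1 and GAS words were tested on simulated data. The κB, ETS octamer and GGAA-run searches and the other steps were not. Analyses ran in Python 3.11.15 (pysam 0.24.0, pandas 2.3.3, scipy 1.17.1, numpy 2.4.6) and samtools 1.23.1.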

Additional observations from a re-analysis of the deposited data

How the results depend on the processing

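Of 122 recomputed values, 103 stayed within 1.5 times the reported count, inside the reported interval or on the same side of the call, and 0 reversed. Some of the 103 could not move or could hardly move. The control list set the equal length, so its peak count was fixed. The strongest promoter peaks of the 2 libraries were already the main pair at most genes. Scaling by the median of all pairs used a factor of 1.47 against 1.46. A promoter peak was found at 9 or 10 of the 10 genes in each library under every q-value cutoff, window, TSS and summit alternative run. Neighbourhood peaks fell to 25 in the control and 31 in the IFN-γ library with a flank of 10 kb, and to 19 and 22 when only peaks nearest to the TSS of the gene itself were counted. Shared peaks fell to 66.0% and 57.4% when at least 50% of each peak had to overlap, and to 56.6% and 49.2% with summits within 100 bp. With scaling by the median pair near a TSS, lower pairs went from 4 to 2 in the neighbourhoods and from 3 to 1 at the promoters of the 10 genes, *REL* and *RELA* losing their calls. With the whole peak searched, the control share with a GGAA core rose to 98.1%, that with a κB match to 39.6% (26.2% in the IFN-γ library) and the IFN-γ share with a GAS match to 18.0%, and within 50 bp the IFN-γ share with a GGAA core was 85.2%. For κB at promoter peaks, alternatives added after the data were seen gave 7 of 18 control peaks within 50 bp and 11 of 21 IFN-γ peaks over the whole peak. Wider or narrower windows hold more or fewer letters by construction. No paired analysis was possible because there was 1 library on each side.

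The values rest on summits with a median of 16 fragments in the control and 22 in the IFN-γ library over the lists, so ratios of weak peaks such as those of *RELB* and *TRAF3* have wide intervals. Read totals, input and the fragments at places without a peak were not analysed here.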

Other observations

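The flanks of the 10 genes held promoters of neighbours that were bound more strongly than some of the genes themselves. The *KAT5* promoter, −49.3 kb from the *RELA* TSS, held 77 control and 89 IFN-γ fragments, a depth-scaled ratio of 0.794 (0.579 to 1.09), and *KAT5* encodes a histone acetyltransferase. *RELB*, with 11 and 12 fragments at its strongest promoter peak, lay between *CLPTM1* with 49 and 79 fragments and *CLASRP* with 61 and 92 fragments, at ratios of 1.11 (0.766 to 1.62) and 1.04 (0.741 to 1.46). In the *NFKB2* flank a peak of 20 and 31 fragments lay −1755 bp and −1762 bp from the TSS of *MIR146B*, which encodes a microRNA of the miR-146 family, known to target pathway adaptors, and its ratio was 1.06 (0.588 to 1.97).

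The distal peaks of the neighbourhoods carried AP-1 matches at 5 of 11 control summits and 5 of 15 IFN-γ summits, and 0 κB matches in either library. Over all peaks away from a TSS, 27.7% and 29.6% had an AP-1 match and 4.49% and 3.29% a κB match, so with these counts no difference from the lists was detectable for either motif.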
